A study of Mus musculus with 4 samples.

Results

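The NF-κB factors and their feedback genes were followed in single cell RNA-sequencing of mouse muscle stem cells (MuSCs). The 10 genes were chosen by name with earlier results of these data known, so the shares of all genes set beside them below are a description. They are the 5 genes of the NF-κB subunits (*Nfkb1*, *Nfkb2*, *Rel*, *Rela*, *Relb*), 3 genes of the inhibitor of NF-κB (IκB) family (*Nfkbia*, *Nfkbiz*, *Bcl3*) and 2 further feedback genes (*Tnfaip3*, *Birc3*). They were 10 of 32285 genes in the count matrices, and all 10 passed the low-count filter in every gene test used here. Cells were tdTomato+ cells sorted from hindlimb muscle of 3 to 4 month old C57BL/6J mice, 14 days after 5 daily injections of tamoxifen (TMX), and each of the 4 samples was a pool from 2 littermates of one genotype. All mice carried one Pax7CreERT2 allele, which drives a TMX-inducible Cre recombinase in cells that express *Pax7*, and a Cre-dependent Rosa26-tdTomato reporter. The 2 control samples had no floxed allele, and the 2 α-cdKO samples were also homozygous for floxed alleles of both α-catenin genes, Ctnna1 fl/fl and Ctnna3 fl/fl, which Cre recombines only in cells that express it.

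NF-κB is a family of dimeric transcription factors that rest in the cytoplasm bound to IκB proteins. Signals from receptors for tumor necrosis factor, interleukin 1 and microbial products activate the IκB kinase complex, IκB proteins are degraded, and the dimers enter the nucleus. Many of the genes they switch on, among them *Nfkbia*, *Tnfaip3* and *Birc3*, act back on the pathway, and chemokine genes such as *Cxcl1* are common targets. Cells were freed from muscle with enzymes at 37 °C and sorted before capture, so levels here are those of isolated cells and not of cells in the intact tissue.

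After removal of barcodes under 1000 UMIs (unique molecular identifiers, which count captured RNA molecules), under 400 genes or with 15% or more mitochondrial UMIs, 28790 of 31254 cells were kept. Control 1 and 2 kept 5484 and 5354 cells and α-cdKO 1 and 2 kept 9786 and 8166, with medians of 6452.5 to 8075 UMIs per cell. Cells of mature-muscle-like and non-myogenic clusters were set aside, which left 27146 myogenic cells with 230862646 UMIs. Library pairs shared 9 to 26 kept barcodes. In control 1 the 8 immune-like marker genes summed to 223 CPM (UMIs scaled to the total of the summed cells, as explained with the levels) in myogenic cells, against 4.09 in control 2 and 1.74 to 1.97 in the α-cdKO samples, and none of the 8 genes was at 0 over the 4 samples. Nearly all of it lay in cycling-like cluster 3 of control 1, where the sum was 15832 CPM over 33 cells, and in the other myogenic clusters of control 1 it was 2.60 to 5.35 CPM. In α-cdKO 1, 5013 kept cells had *Xist* UMIs and no Y-linked UMI and 2915 had the reverse, whereas the other samples had 0 or 1 cell with *Xist* alone, so that library held cells of both sexes. The targeted gene *Ctnna1* did not separate the genotypes in this 3′ count, with 91.0 and 74.7 CPM in control and 79.5 and 75.6 CPM in α-cdKO myogenic cells. The other targeted gene, *Ctnna3*, had 1 and 2 UMIs in control and 2 and 7 UMIs in α-cdKO myogenic cells, too few to compare. Recombination of the floxed alleles was not measured here.

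The nearness of NF-κB motifs to the start sites is shown first, since several of the 10 genes are textbook targets of the factor they encode or restrain. RefSeq promoter windows (GRCm38.p6, 250 bases before to 50 after a start site) were given for 7 of the 10 genes, and *Nfkb1*, *Relb* and *Nfkbiz* had no entry. A κB motif, read as GGG, any 2 bases and then TTTCC and searched on both strands, was present in a window of 4 of the 7, *Nfkb2*, *Rel*, *Nfkbia* and *Tnfaip3*, and was not found in those of *Rela*, *Bcl3* and *Birc3*. Of 27025 genes with a window, 512 held the motif, or 1.89%. The 30 bases around the match nearest to the first listed start are printed below on the strand of the gene with the motif in capitals, together with *Cxcl1*, against which the 10 genes are set below. A match of letters is a description and not a measured binding site. Other forms of the motif and bases outside the windows were not searched, so a window without a match is not shown to lack a κB site.
Nfkbia, chr12:55492657-55492686, minus strand: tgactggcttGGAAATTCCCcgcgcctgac
Tnfaip3, chr10:19015403-19015432, minus strand: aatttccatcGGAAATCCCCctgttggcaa
Rel, chr11:23771041-23771070, minus strand: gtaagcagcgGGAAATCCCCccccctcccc
Nfkb2, chr19:46304716-46304745, plus strand: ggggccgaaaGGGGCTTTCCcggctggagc
Cxcl1, chr5:90891164-90891193, plus strand: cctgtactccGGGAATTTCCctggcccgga
The motif began 29 bases before the first listed RefSeq start of *Nfkbia*, 12 before that of *Tnfaip3*, 91 before that of *Rel*, 11 before that of *Nfkb2* and 71 before that of *Cxcl1*. By the gene positions given at the end of the results, which reach further upstream, the printed motifs of *Tnfaip3* and *Nfkb2* lie inside the gene. In *Nfkbia*, *Tnfaip3* and *Rel* it lay on the strand opposite to the gene.

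Levels were compared across cell states first. Myogenic cells formed 6 clusters, made without the 10 genes and the other genes of the pathway lists, which were removed from the variable genes. Clusters 0 (11835 cells, led by *Cxcl3*, *Cxcl5*, *Cxcl2* and *Dio2*) and 1 (9515 cells, led by *Dnaja4*, *Clu*, *Dnaja1* and *Hsph1*) matched the activated-like markers, and cluster 2 (4427 cells, led by *Fos*, *Jun*, *Hes1* and *Matn4*) the quiescent-like markers. Both names rest on 5 of 12 activated-like markers raised in each cluster. That of cluster 0 is the weaker, since the mean over the 12 was −0.375 on the log2 scale, against 0.496 in cluster 1. Smaller clusters were cycling-like (cluster 3, 638 cells), differentiated-like (cluster 4, 476 cells, with *Myog* and *Actc1*) and mature-myocyte-like (cluster 5, 255 cells). Levels are the UMIs of a gene per 1000000 UMIs of the summed cells of a sample and cluster (CPM), and because states were defined on the same cells, they are given as a description with no test.

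Of the 5 subunit genes, *Nfkb1*, *Nfkb2*, *Rela* and *Relb* had mean ratios of 3.14 to 4.95 between activated-like cells (clusters 0 and 1 together) and quiescent-like cells, and *Rel* of 1.58. *Nfkb1*, whose product p105 is processed to the p50 subunit, was at 566 and 516 CPM in the control and 520 and 517 CPM in the α-cdKO activated-like cells, and at 154 and 84.9 CPM and 144 and 116 CPM in the quiescent-like cells. The states did not overlap, and the ratio within a sample was 4.46-fold ± 1.15 (SD, n = 4). *Rela*, which encodes the transactivating subunit p65, was at 153 and 150 CPM and 125 and 154 CPM in activated-like cells and at 31.1 and 26.5 CPM and 27.8 and 32.7 CPM in quiescent-like cells, 4.95-fold ± 0.504. It had the largest ratio of the 10 genes.

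The noncanonical subunits followed the same order. *Nfkb2*, the source of p52, was at 90.3 and 89.9 CPM in control and 83.0 and 76.7 CPM in α-cdKO activated-like cells, against 25.3 and 18.1 CPM and 22.1 and 20.1 CPM in quiescent-like cells (4.02-fold ± 0.631). *Relb*, the partner of p52, was at 90.3 and 98.2 CPM and 73.0 and 87.4 CPM against 29.5 and 28.2 CPM and 24.1 and 29.3 CPM (3.14-fold ± 0.229). The states of both genes were apart in every sample. *Rel*, which encodes c-Rel, differed least among the subunits, at 31.5 and 35.4 CPM and 34.4 and 36.6 CPM in activated-like cells and 29.3 and 17.5 CPM and 24.3 and 20.2 CPM in quiescent-like cells (1.58-fold ± 0.421). In control 1 the *Rel* ratio was 1.08, and the states were just apart over the 4 samples.

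The IκB family genes and the other feedback genes had mean ratios of 1.18 to 2.42, under those of the subunit genes other than *Rel*. *Nfkbia*, which encodes IκBα, was at 651 and 483 CPM in control and 461 and 604 CPM in α-cdKO activated-like cells, against 448 and 246 CPM and 279 and 331 CPM in quiescent-like cells (1.72-fold ± 0.220). *Bcl3*, which encodes a nuclear IκB protein that binds p50 and p52, was at 84.3 and 70.5 CPM and 54.1 and 69.7 CPM against 48.3 and 26.6 CPM and 33.1 and 35.0 CPM (2.00-fold ± 0.454). Both were higher in the activated-like cells of each sample, without overlap between the states. *Nfkbiz*, which encodes the nuclear protein IκBζ, was at 103 and 90.5 CPM and 60.6 and 85.0 CPM against 123 and 59.0 CPM and 60.2 and 63.9 CPM, and its states overlapped (1.18-fold ± 0.313). It was higher in the quiescent-like cells of control 1.

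*Tnfaip3*, which encodes the ubiquitin-editing enzyme A20 that shuts off signaling, was at 42.1 and 41.3 CPM in control and 28.3 and 33.1 CPM in α-cdKO activated-like cells and at 27.6 and 16.7 CPM and 16.5 and 23.1 CPM in quiescent-like cells (1.79-fold ± 0.472). *Birc3*, which encodes the ubiquitin ligase cIAP2, was at 84.6 and 83.2 CPM and 45.6 and 62.3 CPM against 40.3 and 27.1 CPM and 21.4 and 26.3 CPM (2.42-fold ± 0.451). Both genes were higher in activated-like cells in 4 of 4 samples.

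Over the 10 genes, 9 were higher in the activated-like cells of every sample, where the same held for 47.0% of 5945 genes with a mean of at least 10 CPM. With 5 CPM added to each level, 4 of the 10 (*Nfkb1*, *Nfkb2*, *Rela* and *Relb*) were at least 2-fold higher in every sample, against 7.75% of all these genes. The median log2 ratio on that scale was 1.00 over the 10 genes and 0.11 over all genes. The plot of levels by cluster shows each sample.

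**Figure D1:**
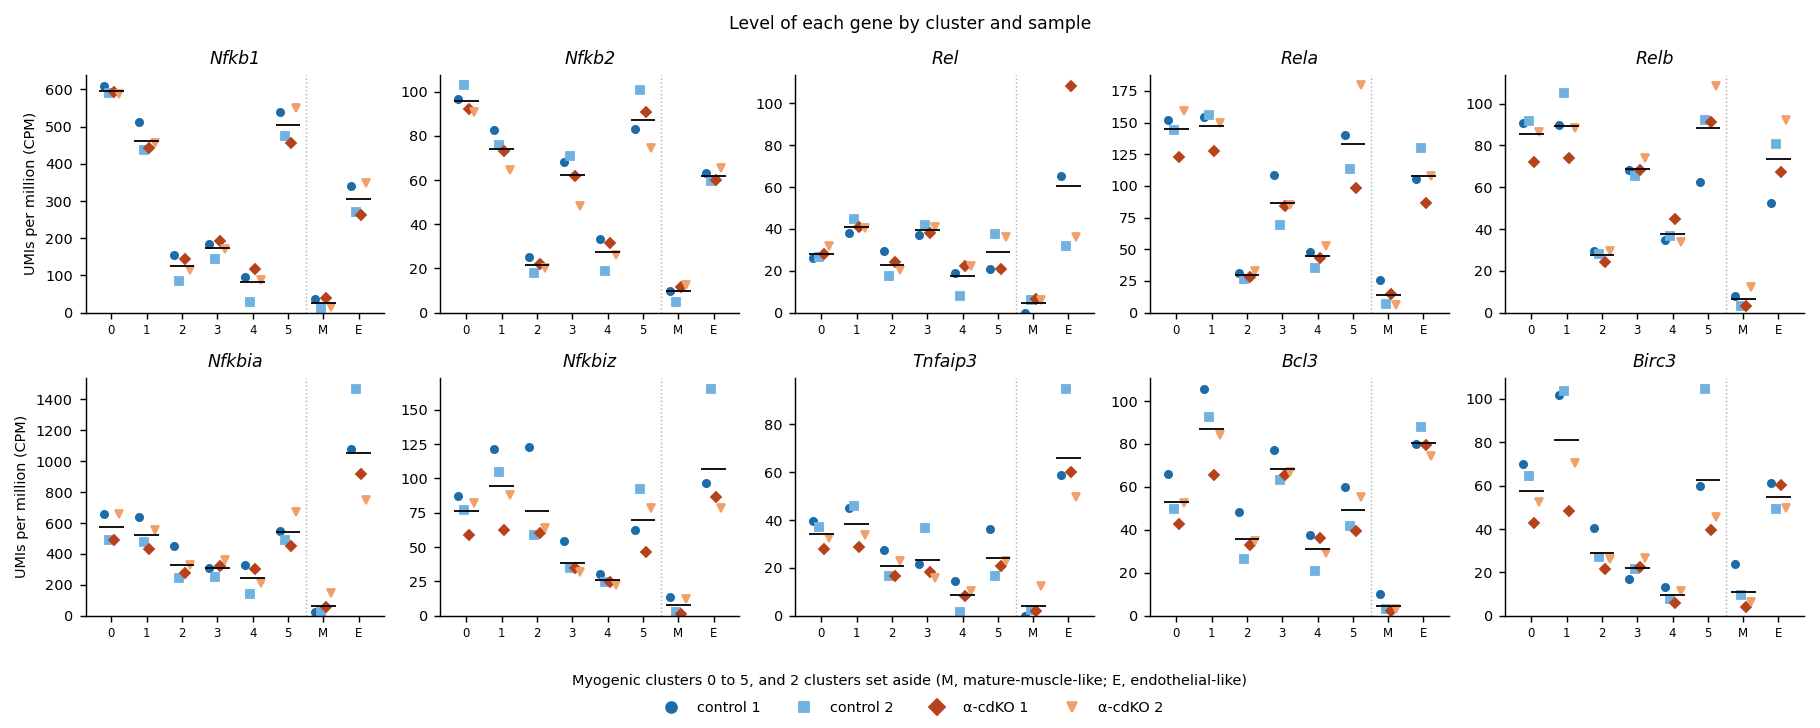
Level of each of the 10 genes (vertical axes, CPM, linear and from 0) in myogenic clusters 0 to 5 and in the mature-muscle-like (M) and endothelial-like (E) clusters that were set aside (horizontal axes). Points are the 4 samples and bars their means. The subunit genes *Nfkb1*, *Nfkb2*, *Rela* and *Relb* were low in cluster 2 and high in clusters 0, 1 and 5, whereas *Nfkbiz* in cluster 2 spread from 59.0 to 123 CPM and overlapped clusters 0 and 1.

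Clusters 0 and 1, both named activated-like, held the 10 genes in different proportions. *Nfkb1*, *Nfkb2* and *Nfkbia* were lower in cluster 1 than in cluster 0 in 4 of 4 samples, at 0.777, 0.775 and 0.916 times its level. *Bcl3* (1.65-fold ± 0.146), *Rel* (1.47-fold ± 0.167), *Birc3* (1.38-fold ± 0.202), *Nfkbiz* (1.22-fold ± 0.182) and *Tnfaip3* (1.11-fold ± 0.0999) were higher in cluster 1 in 4 of 4 samples. *Nfkb1* in cluster 0 was at 610, 590, 593 and 587 CPM in control 1, control 2, α-cdKO 1 and α-cdKO 2. *Rela* and *Relb* had mean ratios of 1.02 and 1.04 and were higher in cluster 1 in 3 of 4 samples. Single samples lay further apart, as with *Relb* in control 2, at 105 CPM in cluster 1 and 91.8 CPM in cluster 0. Of cluster 1 cells, 12.0% were among the highest doublet scores, against 2.86% in cluster 0 and 1.72% in cluster 2, and the part of doublets in these ratios was not tested.

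Differentiated-like cells (cluster 4) had the lowest mean of 7 of the 10 genes. *Birc3* was at 9.65 CPM ± 3.30 (SD, n = 4), *Tnfaip3* at 8.72 ± 5.49, *Nfkbiz* at 25.7 ± 3.52, *Nfkbia* at 246 ± 86.8 and *Nfkb1* at 82.6 ± 37.4 CPM there. *Tnfaip3* rests on 11, 2, 24 and 24 UMIs in these cells. *Nfkb2*, *Rela* and *Relb* were instead lowest in the quiescent-like cluster 2, at 21.4 ± 3.05, 29.5 ± 2.88 and 27.8 ± 2.51 CPM. Cycling-like cells (cluster 3) had levels of *Bcl3* (68.3 ± 6.21 CPM) and *Rel* (39.5 ± 2.24 CPM) whose range over samples overlapped that of cluster 1, and low *Birc3* (21.9 ± 3.95 CPM). *S100a9* and *S100a8*, which mark neutrophils, were among the 10 leading genes of cluster 3, and the 8 immune-like markers summed to 15832 CPM there in control 1 against 1.97 to 13.4 CPM in the other samples. *Rel* in cluster 3 was at 37.1 and 41.8 CPM in control and 38.1 and 40.9 CPM in α-cdKO samples, and *Bcl3* at 77.3 and 63.4 CPM and 65.4 and 67.1 CPM. The mature-myocyte-like cluster 5 overlapped cluster 0 or cluster 1 for each of the 10 genes, for example *Nfkb1* at 505 ± 47.8 CPM and *Nfkbia* at 540 ± 94.5 CPM.

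In the order of cluster means, many neighbors could not be told apart by the range over the 4 samples. *Nfkb1* ran from cluster 0 through 5, 1, 3 and 2 to 4, with overlap between 5 and 1, 3 and 2, and 2 and 4. *Nfkb2* ran through 0, 5, 1, 3, 4 and 2, with a gap only between 3 and 4. *Rela* ran through 1, 0, 5, 3, 4 and 2 and *Relb* through 1, 5, 0, 3, 4 and 2, both with gaps between 3 and 4 and between 4 and 2. *Nfkbia* (0, 5, 1, 2, 3, 4), *Rel* (1, 3, 5, 0, 2, 4) and *Bcl3* (1, 3, 0, 5, 2, 4) had overlap at each step. *Nfkbiz* (1, 2, 0, 5, 3, 4) and *Tnfaip3* (1, 0, 5, 3, 2, 4) had a gap only before cluster 4, and *Birc3* (1, 5, 0, 2, 3, 4) had gaps between 0 and 2 and before cluster 4.

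Outside the myogenic cells, the endothelial-like cluster (181 cells) had the highest mean *Nfkbia* level of all clusters, at 1076 and 1468 CPM in control and 920 and 752 CPM in α-cdKO samples. Its *Tnfaip3* was at 65.9 ± 19.9 CPM and its *Nfkbiz* at 107 ± 39.5 CPM. Of 2 mature-muscle-like clusters that were set aside, the larger (1140 cells, median 2895.5 UMIs and 0.0527% mitochondrial UMIs per cell) was low for each of the 10 genes, for example *Nfkb1* at 37.8, 13.2, 40.5 and 15.6 CPM and *Rela* at 13.5 ± 9.09 CPM. The smaller (196 cells, of which 57.7% were among the highest doublet scores) was not, with *Nfkb1* at 349 ± 101, *Nfkbia* at 385 ± 131 and *Rela* at 94.5 ± 6.99 CPM. Free RNA was not estimated. The set-aside cluster led by *S100a9* and *S100a8* (127 cells) had the highest mean *Rel* and *Nfkbiz* of all clusters, at 86.1 ± 28.9 and 126 ± 47.5 CPM.

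At an equal depth of 2000 UMIs per cell, which left out 352 of the myogenic cells, *Nfkbia* was detected in 49.1% of 26794 myogenic cells (75.3% before thinning) and *Nfkb1* in 45.8% (72.8% before thinning). The other subunits were detected in 20.5% (*Rela*), 13.7% (*Relb*), 13.0% (*Nfkb2*) and 5.78% (*Rel*) of cells, and *Nfkbiz*, *Bcl3*, *Birc3* and *Tnfaip3* in 12.4%, 10.9%, 9.59% and 4.97%. In the 778 cells of the larger mature-muscle-like cluster at that depth the shares were 4.24% for *Nfkbia*, 2.70% for *Nfkb1*, 1.67% for *Rela*, 0.771% for *Rel* and 0.257% for *Tnfaip3*, and between 0.257% and 1.03% for the others. Each gene was thus above the share in that cluster, with median depths of 7436 and 2895.5 UMIs before thinning, whereas in the 142 cells of the smaller one *Nfkbia* was detected in 48.6% and *Nfkb1* in 40.1%.

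A finer clustering (Louvain resolution 0.4 in place of 0.2) gave 2 quiescent-like clusters that differed in these genes. One of 2970 cells was led by *Hspa1a*, *Fos*, *Dnajb1* and *Atf3*, and the other of 2830 cells by *Matn4*, *Neu1* and *Pou2f2*. In the first, *Nfkbiz* was at 114 CPM ± 41.4 against 61.1 ± 20.4 in the second, *Tnfaip3* at 39.2 ± 12.6 against 16.3 ± 4.77, and *Birc3* at 62.4 ± 13.0 against 22.8 ± 6.60. *Nfkbia* was at 484 ± 110 against 259 ± 60.1 CPM, and *Bcl3* at 72.3 ± 16.1 against 28.6 ± 3.27 CPM. *Nfkbiz* and *Tnfaip3* were higher in the first in 4 of 4 samples. *Nfkb1* was at 178 against 140 CPM, both under its 592 CPM in the largest finer cluster of activated-like cells. The finer clustering did not only split cluster 2. Its 2 quiescent-like clusters together held more cells than the 4427 of cluster 2, and the activated-like cluster led by *Dnaja4* held 7067 in place of 9515 cells. With the states so redrawn the *Nfkbiz* ratio of activated-like to quiescent-like cells turned from 0.20 to −0.11 on the log2 scale, and the median over the 10 genes went from 1.12 to 0.54. The part of the cells that changed state in these ratios was not tested.

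The patterns of the 10 genes over the sums of 6 clusters in 4 samples (24 sums, which share libraries and clusters, log2 of CPM plus 5) were positively related in all 45 pairs, with Pearson's r from 0.389 (*Relb* and *Nfkbiz*) to 0.946 (*Rela* and *Relb*). Within cells at 2000 UMIs the same pairs had mean rank correlations (Spearman's rho, a different measure) of 0.0143 to 0.171, the highest for *Nfkb1* and *Nfkbia*. Of 5945 genes, those nearest to each gene over the 24 sums included other NF-κB genes in 3 cases, *Rela* for *Relb* (r = 0.946), *Nfkb1* for *Nfkbia* (r = 0.925) and *Bcl3* for *Rel* (r = 0.824). The tumor necrosis factor receptor gene *Tnfrsf1a* was the nearest to *Nfkb2* (r = 0.967) and the second for *Rela* (r = 0.960). *Nfkb1* was nearest to *Rbms1* (r = 0.974), *Por* and *Rps6ka3*, *Birc3* to *Adamts4* (r = 0.947), *Csnk1d* and *Cebpb*, *Nfkbiz* to *Slc10a6* (r = 0.905), *Cebpd* and *Ccnl1*, *Tnfaip3* to *Pcdh17* (r = 0.885), and *Bcl3* to *Ppard* (r = 0.923). These are descriptions over sums that are not independent.

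Other genes of the pathway, 84 in 6 lists by role, were set beside the 10 genes. Of the receptor genes, 4 of 13 reached 10 CPM in myogenic cells and 4 were higher in the activated-like cells of every sample, including *Tnfrsf12a* (the receptor Fn14), at 1024 against 281 CPM, and *Tnfrsf1a*, at 138 against 29.4 CPM. Of 14 inhibitors and brakes, 10 reached 10 CPM and 7 were higher in every sample, including *Nfkbib* (IκBβ), at 87.1 against 30.1 CPM. Adaptors gave 6 of 8 higher and kinase complex genes 2 of 3, with *Chuk* (IKKα) at 25.3 against 17.0 CPM. In each of these last 3 lists 1 gene was higher in the quiescent-like cells of every sample. Of all genes at that level 47.0% were higher in the activated-like cells of every sample, so 2 of 3 is near the background. Only 1 of 10 ligand genes reached 10 CPM, *Tnfsf12* (TWEAK), which was higher in the quiescent-like cells of 4 of 4 samples, at 39.3 against 13.5 CPM. Of 16 target genes at that level, 11 were higher in activated-like and 4 in quiescent-like cells, among them *Cxcl2* at 832 against 89.5 CPM and *Junb* at 1844 against 3057 CPM.

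The relation to *Cxcl1*, a neutrophil chemokine, was measured cell by cell at 2000 UMIs. *Nfkbia* rose with each step of *Cxcl1* UMIs in 4 of 4 samples. In cells with 0 *Cxcl1* UMIs it was at 460 and 251 CPM in control and 316 and 337 CPM in α-cdKO samples, and in cells with over 10 *Cxcl1* UMIs at 1121 and 801 CPM and 829 and 1050 CPM. *Tnfaip3* was at 22.7 and 17.6 CPM and 13.9 and 15.5 CPM without *Cxcl1*, and at 103 and 70.4 CPM and 55.0 and 63.0 CPM above 10 UMIs. For both genes the lowest sample above 10 *Cxcl1* UMIs was higher than the highest sample without *Cxcl1*.

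In the means of the 4 samples over the steps 0, 1 to 2, 3 to 5, 6 to 10 and over 10 *Cxcl1* UMIs, *Nfkb1* went from 319 through 441, 531 and 600 to 699 CPM. *Nfkbiz* went from 59.1 to 127 CPM, *Nfkb2* from 59.1 to 110 CPM, *Birc3* from 47.3 to 86.4 CPM and *Relb* from 63.7 to 102 CPM. *Rela* (108 to 146 CPM) and *Rel* (23.5 to 41.6 CPM) reached most of their range by the third step, at 134 and 41.1 CPM. *Bcl3* was at 54.2 CPM without *Cxcl1*, 75.7 CPM at 6 to 10 UMIs and 68.7 CPM above 10 UMIs.

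**Figure D2:**
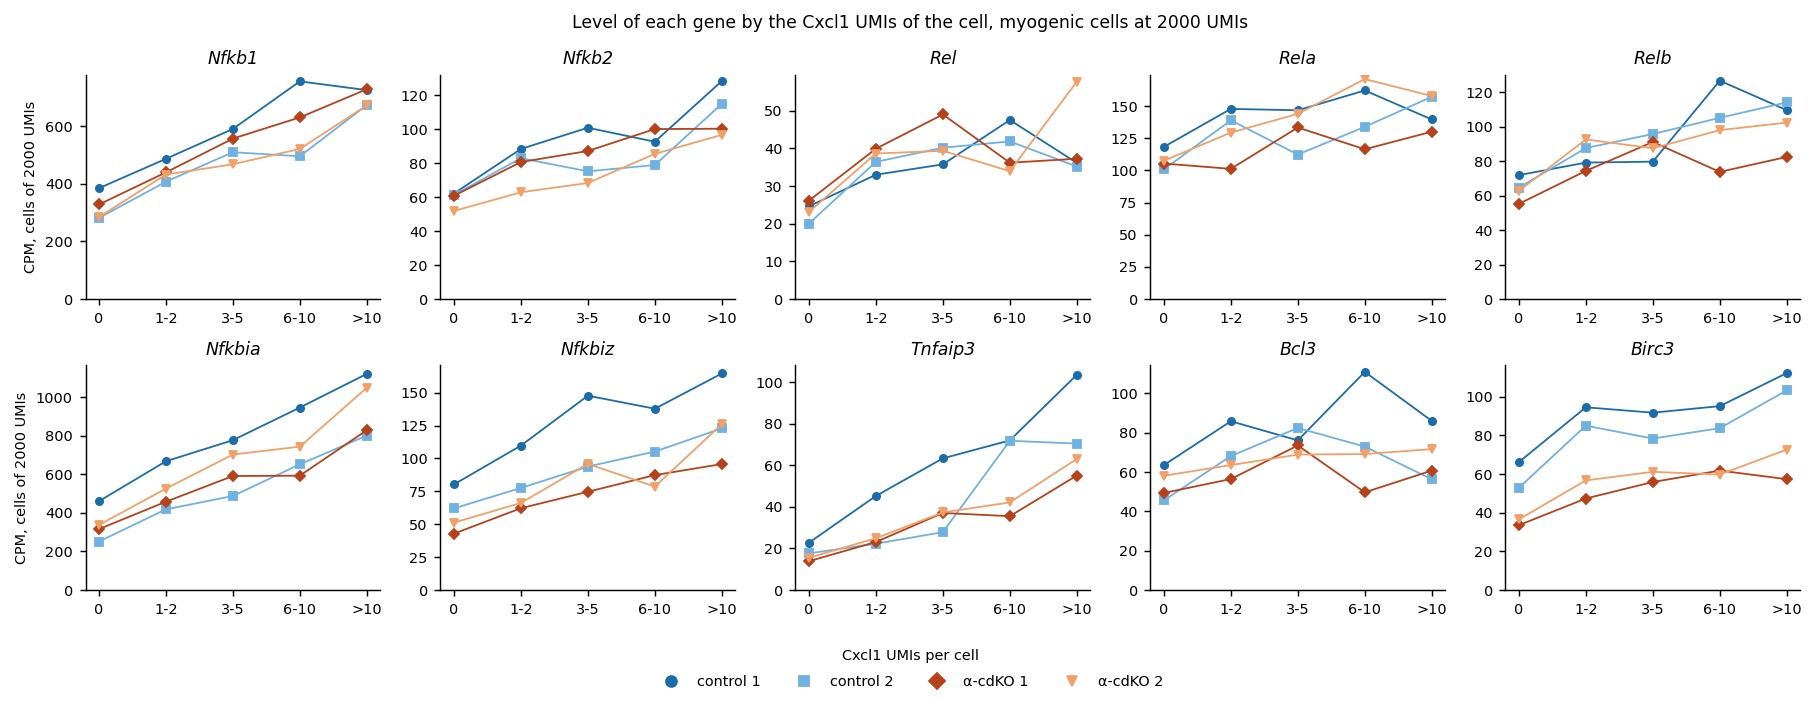
Level of each gene (vertical axes, CPM in myogenic cells thinned to 2000 UMIs, linear and from 0) against the *Cxcl1* UMIs of the same cells (horizontal axes, 5 steps). Lines join the steps of one sample. *Nfkbia* and *Nfkb1* rose from means of 341 and 319 CPM to 950 and 699 CPM. In the means *Rel* flattened after the third step and *Rela* after the fourth, and *Bcl3* was lower at the last step than at the fourth.

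As a rank correlation over cells, given as a description with no p, *Nfkbia* had the highest Spearman's rho with *Cxcl1* of the 10 genes, 0.248 and 0.304 in control and 0.247 and 0.321 in α-cdKO samples. *Nfkb1* followed at 0.225 ± 0.0252 (mean ± SD, n = 4), then *Tnfaip3* at 0.120 ± 0.0151 and *Nfkbiz* at 0.108 ± 0.00505. The others had 0.0835 (*Nfkb2*), 0.0766 (*Birc3*), 0.0745 (*Relb*), 0.0614 (*Rel*), 0.0605 (*Rela*) and 0.0437 (*Bcl3*), which are weak values in sparse counts. Over 7556 to 7558 detected genes the median was between −0.0091 and −0.0054 per sample and the 95th percentile between 0.0338 and 0.0502. Those genes had UMIs in at least 1% of the thinned cells and were not matched to the 10 genes for detection. Within cluster 0 alone *Nfkbia* kept 0.265 ± 0.0349 and *Tnfaip3* 0.118 ± 0.0194, whereas *Rela* was at 0.0147 ± 0.0175 and crossed 0 in 1 sample. Cells of a sample share the library, so these values do not stand for independent samples.

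To test the relation over samples, the UMIs of *Cxcl1*-high cells (at or above the 75th percentile of their sample, which was 3 UMIs in control 1 and α-cdKO 1 and 5 UMIs in control 2 and α-cdKO 2) and of cells with 0 *Cxcl1* UMIs were summed per sample at 2000 UMIs per cell. The 10 genes were all higher in *Cxcl1*-high cells (edgeR's quasi-likelihood test, p-values adjusted by Benjamini-Hochberg over 9709 genes), where 3392 genes (34.9%) were called and 19.0% were called higher. *Tnfaip3* was at 77.8 and 66.1 CPM in high and 22.7 and 17.6 CPM in negative control cells, and at 43.0 and 52.1 CPM against 13.9 and 15.5 CPM in α-cdKO cells. Its classes did not overlap, and it had the largest log2 difference of the 10, 1.91 ± 0.0922 (SE, adjusted p = 1.95e-22, edgeR). *Nfkbia* was at 930 and 717 CPM against 460 and 251 CPM in control and 676 and 897 CPM against 316 and 337 CPM in α-cdKO cells, a log2 difference of 1.40 ± 0.0569 (adjusted p = 2.10e-25, edgeR). *Nfkb1* was at 680 and 593 CPM against 384 and 281 CPM and at 638 and 589 CPM against 328 and 284 CPM (1.13 ± 0.0509, adjusted p = 1.25e-23, edgeR). *Nfkbia* and *Nfkb1* also had no overlap between classes.

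The log2 differences of the other genes were 1.12 (*Nfkbiz*), 0.96 (*Rel*), 0.90 (*Birc3*), 0.86 (*Nfkb2*), 0.76 (*Relb*), 0.57 (*Rela*) and 0.53 (*Bcl3*). The median over the 10 genes was 0.93, against −0.01 over all genes tested. Every gene stayed called when any 1 sample was left out. The spread in this test is between paired sums of the same 4 libraries and is shared over genes, so the small p-values describe these libraries.

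The classes differed in state, since cluster 2 held 6.20% to 7.52% of the *Cxcl1*-high and 18.1% to 28.0% of the *Cxcl1*-negative cells of a sample. Within activated-like cells alone, 9 of the 10 genes were called higher, where 5.67% of 8995 genes were, with *Tnfaip3* at 1.60 ± 0.0916 and *Nfkbia* at 1.14 ± 0.0422 on the log2 scale, and *Bcl3* missed at 0.22 ± 0.0726 (adjusted p = 0.0509, edgeR). Within quiescent-like cells alone, where the *Cxcl1*-high cells numbered 86 to 152 per sample, 9 of the 10 were called higher beside 8.27% of 5246 genes, with *Tnfaip3* at 2.43 ± 0.332 and *Nfkb1* at 2.15 ± 0.144, and *Rela* missed at 0.65 ± 0.299 (adjusted p = 0.181, edgeR). Within cluster 0, 9 were called beside 3.25% of 7573 genes and *Rela* missed (0.16 ± 0.0641). Within cluster 1, 9 were called beside 3.42% of 6763 genes and *Bcl3* missed (0.24 ± 0.0953). Whether the differences are larger in quiescent-like than in activated-like cells was not tested.

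**Figure D3:**
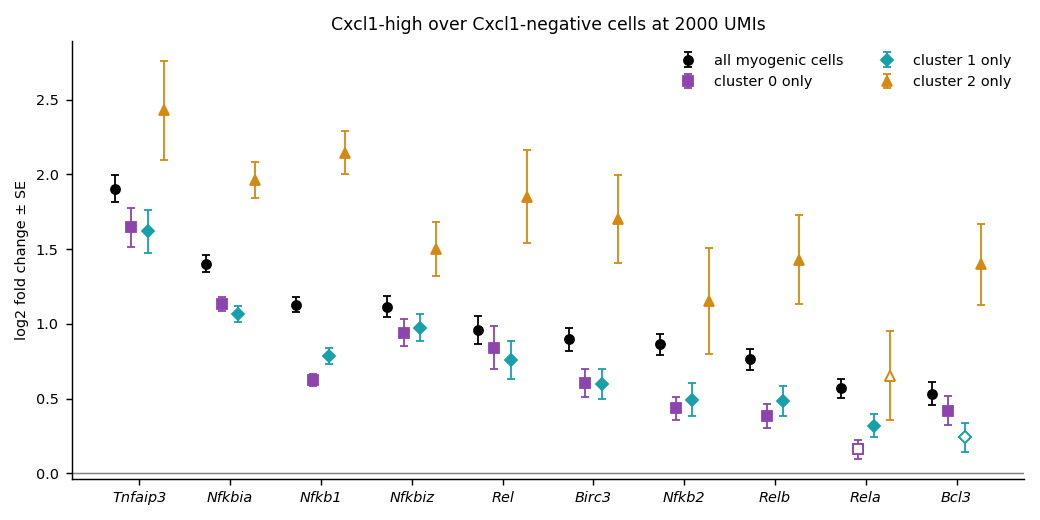
Log2 fold change of each gene between *Cxcl1*-high and *Cxcl1*-negative cells at 2000 UMIs (vertical axis, points with standard errors from edgeR) in all myogenic cells and within clusters 0, 1 and 2 (symbols). Open symbols missed an adjusted p of 0.05, *Rela* in clusters 0 and 2 and *Bcl3* in cluster 1, and *Tnfaip3* had the largest value in each set of cells.

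Other pathway genes were counted in the same test. Of 19 target genes tested besides *Cxcl1*, 16 were higher and 0 lower in *Cxcl1*-high cells, including *Cxcl2* at 4.93 ± 0.140 and *Junb* at 0.64 ± 0.0425 on the log2 scale. Of 7 receptor genes 3 were higher, *Il1r1* (1.04 ± 0.0818), *Tnfrsf12a* (0.50 ± 0.0473) and *Tnfrsf1a* (0.37 ± 0.0626). Of 11 inhibitors and brakes 6 were higher and 1 lower, with *Nfkbib* at 0.90 ± 0.0703, *Tnip1*, which encodes a partner of A20, at 0.80 ± 0.106 and *Tax1bp1* at 0.33 ± 0.0553. The 1 lower was *N4bp1* (−0.41), named after its value was seen. Adaptors gave 3 of 14 higher, with *Birc2* (cIAP1) at 0.82 ± 0.0762, which is near the 19.0% of all genes called higher. Of 5 kinase complex genes and 2 ligand genes 0 were called, counts too small to set against that share. The medians of these lists were 0.92 for targets, 0.36 for receptors, 0.33 for inhibitors and brakes, 0.16 for adaptors, −0.15 for the kinase complex and −0.17 for ligands.

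A difference of the *Cxcl1* relation between the genotypes was not found for the 10 genes. The interaction of genotype and *Cxcl1* class called 9 of 9709 genes (0.0927%, 461 at an unadjusted p under 0.05) by edgeR's quasi-likelihood test, and 0 of the 10 genes. Of the 9 genes called, 5 were chemokine genes of the target list, named here after their values were seen. They were *Cxcl2* (1.57 ± 0.117 on the log2 scale), *Cxcl5* (1.83 ± 0.395), *Cxcl3* (1.30 ± 0.235), *Ccl7* (1.02 ± 0.192) and *Ccl2* (0.83 ± 0.148), each with a larger fitted step in α-cdKO samples. For *Cxcl3* and *Cxcl5* the steps of single samples overlapped between the genotypes. *Cxcl2* was at 89.9 and 160 CPM in *Cxcl1*-negative and 1382 and 2747 CPM in *Cxcl1*-high control cells, and at 31.1 and 74.2 CPM and 1978 and 2718 CPM in α-cdKO cells, so that the negative cells were apart by genotype and the high cells overlapped. At 4000 UMIs per cell *Cxcl2* (1.86 ± 0.207) and *Cxcl3* (2.44 ± 0.282) were still called, and *Cxcl5*, *Ccl2* and *Ccl7* were not (1.31, 0.46 and 0.84, adjusted p = 0.999 for each, edgeR). The interaction values of the 10 genes lay between −0.16 (*Bcl3*) and 0.17 (*Birc3*).

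Genotype was tested on UMIs summed per sample, scaled by edgeR's TMM factors. None of the 10 genes was called between α-cdKO and control samples in all myogenic cells, in quiescent-like cells or in activated-like cells by edgeR's quasi-likelihood test. Over all genes the test called 24 of 14645 (0.164%, 1036 at an unadjusted p under 0.05) in myogenic cells, 11 of 11534 (0.0954%, 907 unadjusted) in quiescent-like cells and 31 of 13607 (0.228%, 1060 unadjusted) in activated-like cells. DESeq2 called 118, 23 and 112 genes, and 0 of the 10 in each. An exact permutation test of 2 samples against 2 cannot give a two-sided p under 0.333.

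The feedback genes *Birc3*, *Tnfaip3* and *Nfkbiz* had the lowest estimates. In myogenic cells *Birc3* was at 78.4 and 69.9 CPM in control and 38.2 and 56.5 CPM in α-cdKO samples, a log2 difference of −0.65 ± 0.198 (SE, adjusted p = 0.614, edgeR). *Tnfaip3* was at 40.2 and 35.8 CPM and 24.6 and 31.3 CPM (−0.44 ± 0.160, adjusted p = 0.675, edgeR). *Nfkbiz* was at 104 and 81.3 CPM and 55.1 and 80.7 CPM (−0.45 ± 0.214, adjusted p = 0.714, edgeR). For these 3 genes both α-cdKO samples lay under both control samples, with α-cdKO 1, the library of both sexes, the lowest. The same separation, in that direction, held for 19.8% of all genes, and for 5 of the 10.

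Within activated-like cells *Birc3* was at 82.9 and 84.1 CPM in control and 46.0 and 62.5 CPM in α-cdKO samples (−0.62 ± 0.169, adjusted p = 0.437, edgeR), and *Tnfaip3* at 41.2 and 41.7 CPM and 28.6 and 33.2 CPM (−0.42 ± 0.145, adjusted p = 0.552, edgeR). Here 6 of the 10 genes were lower in both α-cdKO samples without overlap, beside 19.7% of all genes, and 0 were higher, beside 18.9%. With no low-count filter *Birc3* alone of the 10 passed in activated-like cells, at −0.61 (adjusted p = 0.0137, edgeR), in a fit that called 425 genes in place of 31. Without control 1 and without α-cdKO 1 in turn, and in each other leave-out, *Birc3* in activated-like cells stayed between −0.86 and −0.41 and was not called.

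The subunit genes differed less. In myogenic cells *Nfkb1* was at 513 and 420 CPM in control and 422 and 456 CPM in α-cdKO samples, *Nfkb2* at 82.8 and 75.7 CPM and 70.6 and 69.0 CPM, and *Rela* at 139 and 124 CPM and 105 and 138 CPM. *Nfkb2* was lower in both α-cdKO samples, and *Nfkb1* and *Rela* overlapped. *Relb* was at 83.2 and 84.0 CPM and 64.6 and 80.3 CPM, and *Rel*, the only one of the 10 higher in both α-cdKO samples, at 31.5 and 31.9 CPM and 32.2 and 35.1 CPM, beside 19.0% of all genes that were higher without overlap. *Nfkbia*, at 625 and 426 CPM and 412 and 565 CPM, and *Bcl3*, at 80.2 and 61.5 CPM and 50.7 and 65.6 CPM, overlapped between genotypes. In quiescent-like cells 1 of the 10 (*Birc3*) was lower without overlap, beside 19.9% of all genes, and 0 were higher, beside 20.0%.

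The median log2 difference over the 10 genes was −0.19 in myogenic cells, −0.19 in activated-like cells and −0.07 in quiescent-like cells, against −0.01, −0.01 and −0.00454 over all genes tested. In quiescent-like cells *Nfkbiz* was called (−0.90, adjusted p = 0.0116, edgeR) only when control 2 was left out, which left control 1 as the lone control. Among cells of α-cdKO 1, *Birc3* in myogenic cells was at 45.8 CPM in those with Y-linked and 34.0 CPM in those with *Xist* UMIs, and *Nfkbiz* at 65.0 and 51.5 CPM. With Y-linked cells of all 4 samples alone, 0 of the 10 genes were called, and the part of sex in the estimates was not tested further. The immune-like markers summed to 3.07 to 4.48 CPM in clusters 0, 1 and 2 of control 1 and 3.15 to 4.41 CPM in those of control 2.

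**Figure D4:**
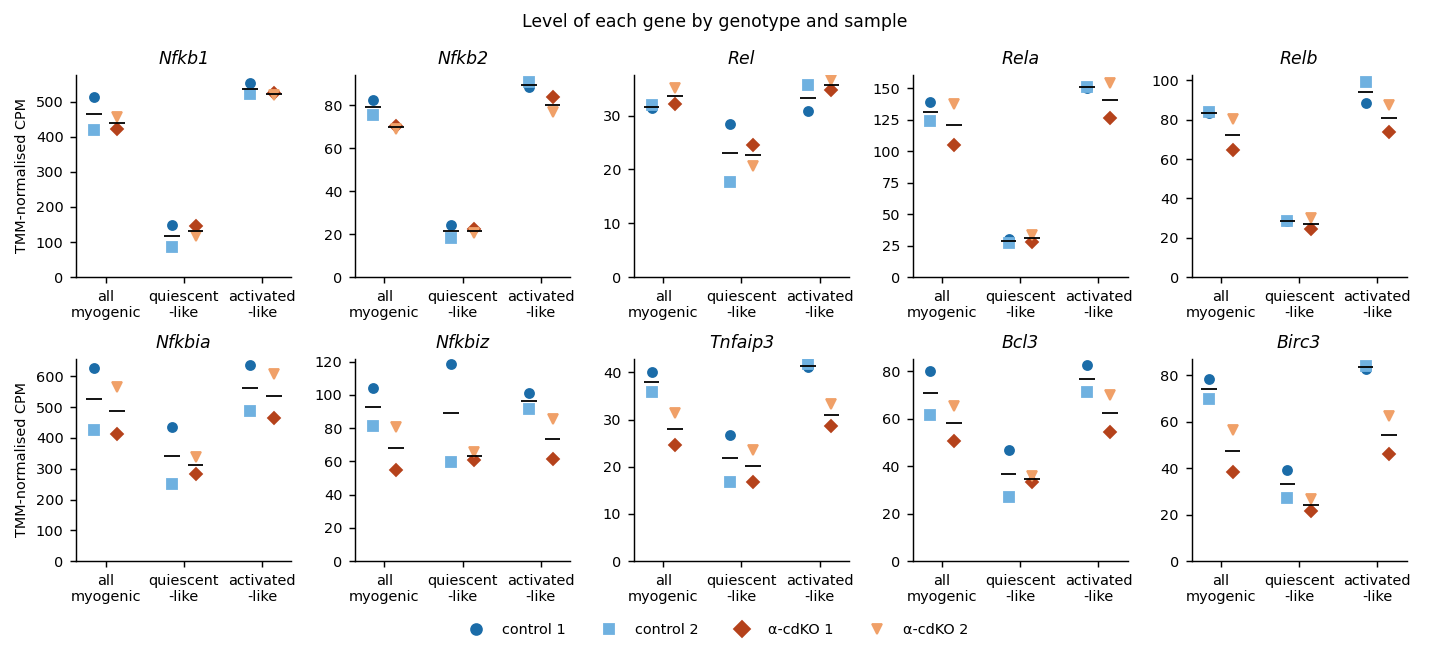
Level of each gene (vertical axes, TMM-scaled CPM, linear and from 0) in all myogenic, quiescent-like and activated-like cells (horizontal axes) by genotype and sample. Points are samples and bars the means of 2. *Nfkbiz* in activated-like cells was at 101 and 91.5 CPM in control and 61.1 and 85.2 CPM in α-cdKO samples, and *Birc3* in activated-like cells was at 82.9 and 84.1 CPM in control and 46.0 and 62.5 CPM in α-cdKO samples.

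Other pathway genes gave 0 calls in the tests of genotype on summed cells. In myogenic cells 5 ligand, 11 receptor, 17 adaptor, 6 kinase complex, 12 inhibitor and 21 target genes were tested, with median log2 differences of −0.24, −0.04, −0.05, −0.11, −0.04 and −0.17. *Cxcl1* itself was at 1435 and 2369 CPM in control and 1505 and 2171 CPM in α-cdKO myogenic cells before TMM scaling, and its genotypes overlapped.

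In the genome (GRCm38, GENCODE vM21) the subunit genes lie at chr3:135584655-135691547 (*Nfkb1*), chr19:46304320-46312385 (*Nfkb2*), chr11:23736847-23770970 (*Rel*), chr19:5637483-5648130 (*Rela*) and chr7:19606217-19629438 (*Relb*). *Bcl3*, at chr7:19808462-19822770, is on the same chromosome and strand as *Relb*. *Nfkbia* lies at chr12:55489410-55492647, *Nfkbiz* at chr16:55811375-55838899, *Tnfaip3* at chr10:19000910-19015657 and *Birc3* at chr9:7848699-7873186. The counts are of UMIs at whole genes and do not separate their transcripts.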

How the data were processed

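Single cell RNA-sequencing libraries (10x Genomics 3′) of 2 control and 2 α-cdKO samples were used. Per the submitters' notes the reads were processed with Cell Ranger on GRCm38 (mm10), with the reference release named in the study's methods. The deposited matrices hold raw UMI counts per gene and cell, made by the authors without normalization. Total UMIs were 46099310 to 74921651 per sample, and counting limits the precision of low genes. The 10 genes and the pathway lists were chosen with earlier results of these data known. Cells with at least 1000 UMIs, 400 genes and under 15% mitochondrial UMIs were kept. They were clustered with Seurat 5.3.0 (2000 variable genes less the listed genes, 30 components, Harmony integration written for this work, Louvain resolution 0.2) and named by marker lists (3 or more markers at 1.5-fold). Doublet calling with Scrublet in scanpy 1.11.5 marked 0 to 4 cells per sample and so had not worked, and no cell was removed by it. An alternative left out the highest scores. UMIs were summed per sample and tested with edgeR 4.0.16 (TMM, filterByExpr, glmQLFit, glmQLFTest, Benjamini-Hochberg) over all genes. The *Cxcl1* contrast used cells thinned to 2000 UMIs with a term for sample. Errors are SDs over samples or standard errors of the edgeR fits on sums per sample. The thinning with the *Cxcl1* correlation, the edgeR fits and the Harmony integration were tested on simulated data. Named genes were the 10 genes, the 3 most like each of them and the 3 highest of each pathway list. The pools are separate samples by the labels, and replicate numbers do not pair them. Alternatives used DESeq2 1.42.0, other filters, scalings, clusterings and depths, and left-out samples.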

Additional observations from a re-analysis of the deposited data

Results flagged for a closer look

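The step in expression between *Cxcl1*-high and *Cxcl1*-negative cells was called different between the genotypes for 5 chemokine genes of the target list, by the interaction term of edgeR's quasi-likelihood test adjusted over 9709 genes. The log2 difference of the step, α-cdKO less control with 2 samples each, was 1.57 ± 0.117 (SE) for *Cxcl2* (adjusted p = 1.89e-18, edgeR), 1.30 ± 0.235 for *Cxcl3* (adjusted p = 0.000934, edgeR) and 1.83 ± 0.395 for *Cxcl5* (adjusted p = 0.0141, edgeR). It was 0.83 ± 0.148 for *Ccl2* (adjusted p = 0.000907, edgeR) and 1.02 ± 0.192 for *Ccl7* (adjusted p = 0.00202, edgeR). The test called 9 genes in all, and none of the 10 NF-κB genes was among them. For *Cxcl3* and *Cxcl5* the steps of single samples overlapped between the genotypes. The spread in this test is between sums of the same libraries and is shared over genes, so the small p-values describe these libraries. These standard errors and p-values do not measure how the step of a gene varies between pools of a genotype. With cells thinned to 4000 UMIs the calls were *Cxcl2* (1.86 ± 0.207, adjusted p = 0.000656, edgeR) and *Cxcl3* (2.44 ± 0.282, adjusted p = 0.000656, edgeR), whereas *Cxcl5* (1.31), *Ccl2* (0.46) and *Ccl7* (0.84) lost theirs (adjusted p = 0.999 for each, edgeR).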

How the results depend on the processing

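Having 2 samples per genotype limits each genotype result, and the *Cxcl1* contrast rests on 4 libraries. The cause of each change below was not tested. In myogenic cells the genotype test called 24 genes, against 118 with DESeq2, 13 with a replicate block and 11 to 49 with 1 sample left out (11 without control 1, 37 without control 2, 49 without α-cdKO 2). In quiescent-like cells it called 11, against 23 with DESeq2, 267 with no filter, 33 with the block, 7 with the listed genes kept, 18 at resolution 0.4 and 34 to 130 with any 1 sample left out (34 without control 1, 130 without control 2, 89 without α-cdKO 1, 102 without α-cdKO 2). In activated-like cells it called 31, against 112 with DESeq2, 425 with no filter, 56 without integration, 19 in cluster 0 alone and 25 to 87 with 1 sample left out (87 without control 2, 58 without α-cdKO 1, 62 without α-cdKO 2). Replicate numbers gave pair correlations of −0.17, 0.025 and −0.147, and a crossed block, chosen after seeing the data, called 103 genes in myogenic and 76 in activated-like cells. The block called 24 genes in activated-like cells and none of the 10 genes in any set. No block was run for the interaction, where it cannot be separated from the sample term.

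The *Cxcl1* contrast called 3392 genes, against 1605 with DESeq2, 735 in activated-like cells, 548 in quiescent-like cells, 303 in cluster 0, 289 in cluster 1 and 2078 to 3592 with 1 sample left out (2078 without α-cdKO 1). The interaction called 9, against 14 with no filter and 2 at 4000 UMIs. The median log2 state ratio of the 10 genes went from 1.12 to 0.54 at resolution 0.4 and spanned 0.985 to 1.19 with 1 sample left out. Their median correlation with *Cxcl1* was 0.0800, and 0.121 at 4000 UMIs, 0.0547 in cluster 0, 0.0585 in cluster 1, 0.107 in cluster 2 and 0.0791 to 0.0819 with 1 sample left out.

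Signs turned for *Nfkb1* with Y-linked cells alone (0.0674 in myogenic, 0.0366 in activated-like cells), and in activated-like cells without integration (0.00221) and in cluster 0 (0.0131). They also turned for *Nfkbia* in cluster 0 (0.0413), *Rel* in cluster 1 (−0.0176) and the *Nfkbiz* state ratio at resolution 0.4 (−0.11). With 1 sample left out, myogenic estimates spanned −0.23 to 0.0663 (*Nfkb1*), −0.36 to 0.20 (*Nfkbia*) and −0.33 to 0.0672 (*Rela*), and activated-like ones −0.0872 to 0.00565, −0.27 to 0.14 and −0.25 to 0.0438.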
